A study of Mus musculus with 24 samples.

Results

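Cyclin-dependent kinase inhibitors are the proteins that hold the cell cycle in check, and 9 genes were followed here: the CIP/KIP inhibitors Cdkn1a, Cdkn1b and Cdkn1c, the INK4 inhibitors Cdkn2a, Cdkn2b, Cdkn2c and Cdkn2d, and the regulators Trp53 and Mdm2. They were picked by name and are 9 of the 24958 named genes in the LV data. All 9 were found, and all 9 had a mean value of at least 10, the minimum for testing.

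The LV free wall of C57BL6/J mice aged 24 months was studied by bulk mRNA sequencing in 24 libraries, 4 in each of 6 groups. Female groups were control mice (Ctrl), mice whose ovaries were removed at 12 months (Ovx), and both of these after AngII delivered from an osmotic pump during the last 4 weeks (Ctrl + AngII and Ovx + AngII). Control males (Male Ctrl) and males gonadectomized at 12 months (Male Gx) received no AngII. Angiotensin II (AngII) is the peptide of the renin-angiotensin system that raises blood pressure, and no transgene or deletion is named for any group. RNA of 2 mice was pooled for each library, so n counts pools, and the spread within a group is that between pools. According to the methods, an AngII-treated mouse of this age was killed before the end of the protocol. Its group is not named as Ctrl + AngII or Ovx + AngII. Whether every AngII pool held RNA of 2 mice found in no other pool is therefore not known. Libraries carry the numbers 31 to 54, and no number was shared between groups. Each group had 1 library numbered 49 to 54 and 3 numbered 31 to 48, and the labels name no batch.

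A cell enters DNA synthesis when cyclin-dependent kinases phosphorylate the retinoblastoma protein. INK4 proteins bind Cdk4 and Cdk6 only, whereas CIP/KIP proteins bind complexes of cyclins with several kinases. The p53 protein, encoded by Trp53, switches on Cdkn1a after DNA damage and also switches on Mdm2, whose product marks p53 for destruction. Cardiomyocytes of adult mice have largely left the cell cycle, and p16Ink4a (from Cdkn2a) and p21 (from Cdkn1a) are widely used markers of senescent cells in aged tissue.

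The start sites of Cdkn1a are shown first because this was the gene with the largest response among the 9. Cdkn1a lies on the plus strand of chromosome 17 (29090976 to 29100727, mm10). RefSeq (GRCm38.p6, the mm10 assembly) gives it a pair of starts 2790 bases apart, and each window below runs from 250 bases before the start to 50 after it. Capitals mark matches to the p53 consensus site in the first window and the GC box GGGCGG in the second.
Cdkn1a, upstream start, chr17:29090729-29091028, plus strand: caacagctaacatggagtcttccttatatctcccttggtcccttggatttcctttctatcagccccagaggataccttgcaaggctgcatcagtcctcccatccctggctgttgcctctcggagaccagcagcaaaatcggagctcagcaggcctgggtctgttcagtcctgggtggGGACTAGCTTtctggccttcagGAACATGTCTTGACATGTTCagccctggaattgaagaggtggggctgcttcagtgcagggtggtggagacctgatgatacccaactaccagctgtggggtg
Cdkn1a, downstream start, chr17:29093519-29093818, plus strand: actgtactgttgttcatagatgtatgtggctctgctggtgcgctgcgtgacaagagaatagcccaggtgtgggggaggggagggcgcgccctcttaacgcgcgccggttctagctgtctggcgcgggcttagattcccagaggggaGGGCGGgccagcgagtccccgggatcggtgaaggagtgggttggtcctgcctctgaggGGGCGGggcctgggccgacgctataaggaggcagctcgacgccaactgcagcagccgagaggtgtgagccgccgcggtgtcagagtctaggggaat
The p53 consensus site was searched on both strands as a pair of half-sites of 10 bases with up to 13 bases between them, at most 1 mismatch, and none in the 4 core bases. The upstream window held 2 such pairs, from -73 to -42 with 0 mismatches and from -51 to -32 with 1 mismatch, and they share a half-site. Of 32851 mouse windows of this kind, 0.417% held a match. None was found in the windows of Mdm2, Trp53 and the other members with a window (8 of the 9 members had one). For Mdm2 this was the window of a single start. Sequence outside the windows, such as introns, was not searched, so a site there would be missed. The GC box was common, with a match in 35.66% of windows. These are matches of letters, and no binding was measured.

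Cdkn2a and Cdkn2c are shown for a reason of measurement. Cdkn2a, on the minus strand of chromosome 4 (89274471 to 89294653), makes p19Arf from its upstream start and p16Ink4a from a start 12427 bases further on. The single value per gene in the table cannot separate these products. Cdkn2c, on the same strand and chromosome (109660876 to 109667189), was the inhibitor gene that fell. Capitals again mark GGGCGG.
Cdkn2a, upstream start, chr4:89294570-89294869, minus strand: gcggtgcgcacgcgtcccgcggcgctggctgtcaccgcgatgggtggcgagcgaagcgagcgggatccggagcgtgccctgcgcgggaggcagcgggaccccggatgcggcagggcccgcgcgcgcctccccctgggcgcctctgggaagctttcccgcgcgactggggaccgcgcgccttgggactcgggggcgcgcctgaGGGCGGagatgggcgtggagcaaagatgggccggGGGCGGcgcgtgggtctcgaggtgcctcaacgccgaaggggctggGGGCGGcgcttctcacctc
Cdkn2a, downstream start, chr4:89282143-89282442, minus strand: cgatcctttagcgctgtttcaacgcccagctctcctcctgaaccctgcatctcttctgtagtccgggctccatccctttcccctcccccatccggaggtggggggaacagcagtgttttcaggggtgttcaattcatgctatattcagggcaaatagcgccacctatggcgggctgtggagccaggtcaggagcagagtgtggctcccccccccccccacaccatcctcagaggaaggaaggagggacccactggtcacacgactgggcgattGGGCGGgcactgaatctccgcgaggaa
Cdkn2c, upstream start, chr4:109666707-109667006, minus strand: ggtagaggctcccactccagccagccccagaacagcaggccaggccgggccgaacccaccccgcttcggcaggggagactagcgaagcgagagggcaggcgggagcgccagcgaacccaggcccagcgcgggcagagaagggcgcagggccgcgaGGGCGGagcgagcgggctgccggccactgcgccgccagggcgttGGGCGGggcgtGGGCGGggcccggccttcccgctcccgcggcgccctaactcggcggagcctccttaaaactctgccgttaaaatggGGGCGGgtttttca
The GC box occurred 3 times in the upstream and 1 time in the downstream window of Cdkn2a, and 4 times in that of Cdkn2c.

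Deposited values were normalized by the authors and were not whole. Depth was therefore only estimated relative to the median library, from the most repeated low values, at 0.452 (Ctrl + AngII library 40) to 1.87 (Ctrl library 38). The level of all genes as deposited was lower by -0.28 on the log2 scale in Ctrl + AngII than in Ctrl and by -0.36 in Male Ctrl than in Ctrl. For this reason the libraries were rescaled to a shared level, and levels below are rescaled normalized values. All 8 ventricular cardiomyocyte markers were high in every library (Ryr2 at 42959 or more), whereas 3 of 5 atrial markers, Myl7, Sln and Bmp10, did not exceed 14.5, 10.3 and 25.2. The other two were higher, with Myl4 at 33.9 to 78.2 and Nppa, which is also induced in the ventricle under load, at 1424 to 24730. Differences are log2 fold changes on log2(value + 1), from limma, with p-values adjusted over all 13816 genes tested in females or 13799 in all mice. A gene was said to rise or fall at an adjusted p of at most 0.05.

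Levels per kilobase of exon ranked Mdm2 first (mean over the 24 libraries 330 per kb), then Cdkn1a (259), Cdkn1c (209), Cdkn2d (190), Cdkn1b (149), Trp53 (141), Cdkn2c (94.7), Cdkn2b (15.9) and Cdkn2a (12.6). The steps between neighbours were not all clear, and in Ctrl alone Cdkn1c (218 ± 20.5 per kb) stood above Cdkn1a (205 ± 37.6, SD, n = 4). Cdkn1a was above Cdkn1c in 12 of the 24 libraries and Cdkn2b above Cdkn2a in 15, whereas Cdkn2c was above Cdkn2b in all 24. The classical senescence markers of the INK4 locus were thus near the floor of the measurement, with Cdkn2a between 6.15 and 32.5 and Cdkn2b between 6.64 and 40.1 in any library. These correspond to 5.14 to 35.5 and 4.97 to 42.5 times the step of the library, taken as the smallest of its most repeated values above 0.

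**Figure D1:**
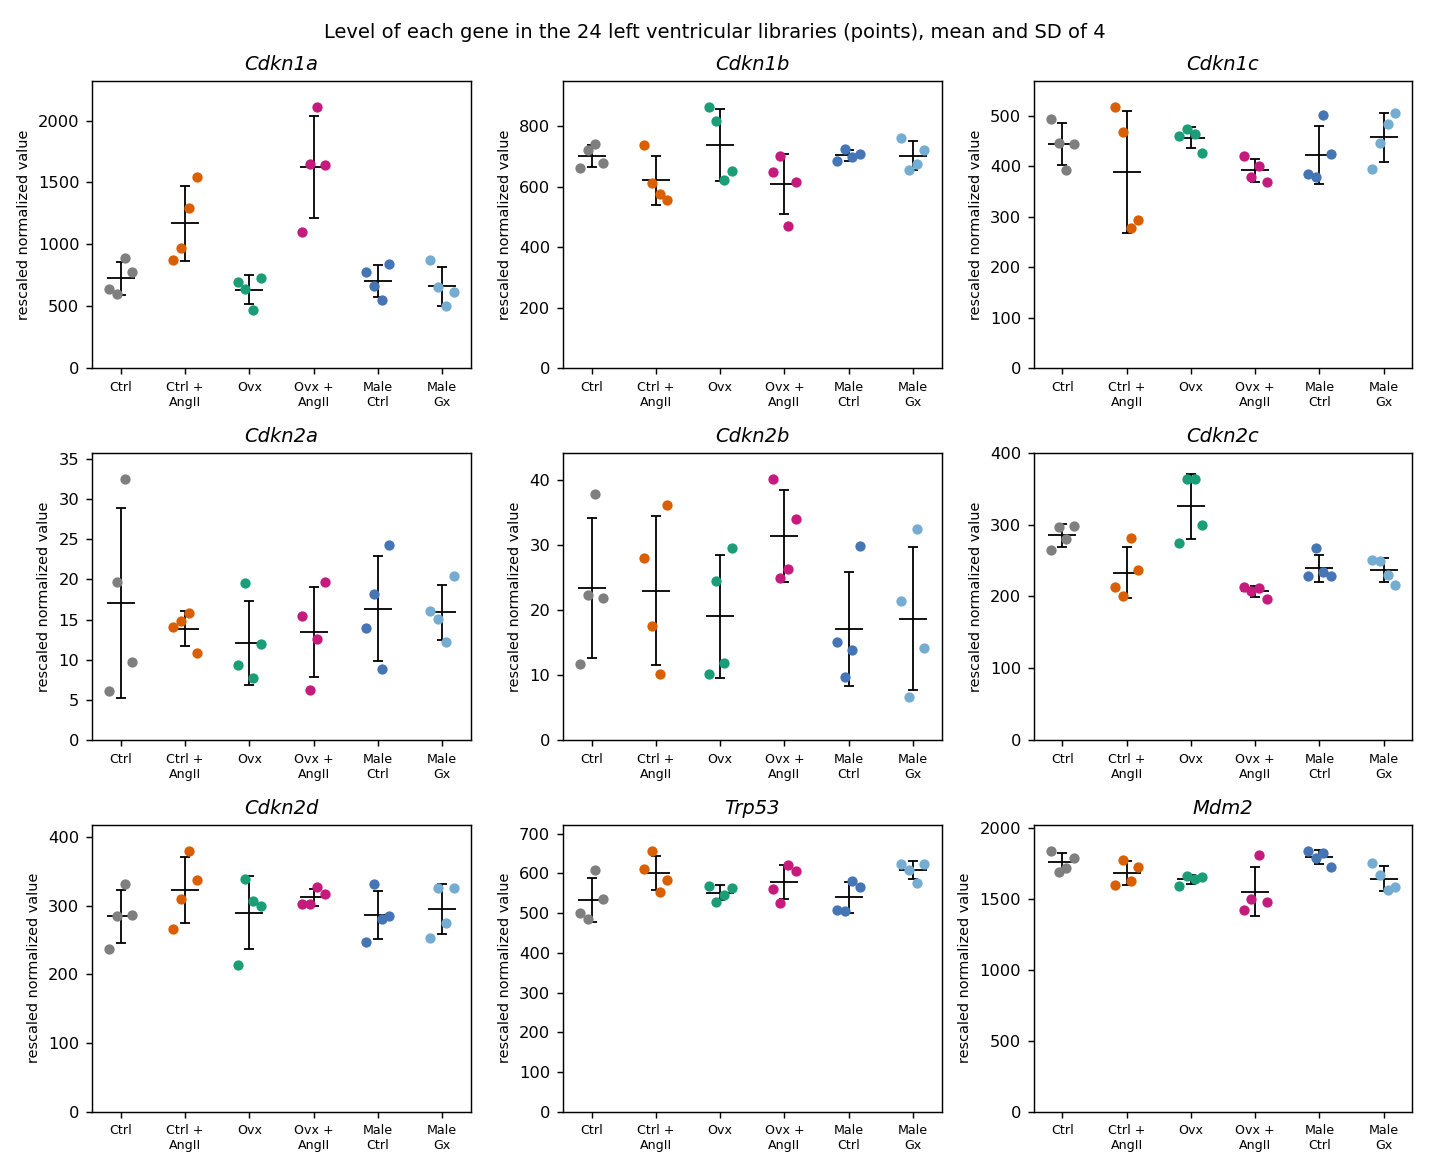
Rescaled normalized value (vertical axis, from 0) of each of the 9 genes in the 24 LV libraries (points), by group, with the mean and SD of 4 libraries (bars). The 4 Ovx + AngII libraries sit between 1096 and 2108 for Cdkn1a, above all 4 Ovx libraries, and between 196 and 213 for Cdkn2c, below them.

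Cdkn1a, the gene of p21, rose after AngII in both female groups. In Ovx mice the value was 699, 639, 473 and 728 in libraries 43, 44, 45 and 53 without AngII and 1096, 1645, 2108 and 1640 in libraries 46, 47, 48 and 54 with AngII. The groups did not overlap, and the lowest infused library, 46, stood well above the highest untreated one. The mean went from 635 ± 114 to 1622 ± 414 (SD, n = 4). This was a log2 fold change of 1.33 (standard error 0.19, 95% interval 0.93 to 1.74, limma adjusted p = 2.1e-04), or 2.52-fold (1.90 to 3.34). Cdkn1a was the member past a log2 fold change of 1 in size, which 1.11% of all genes tested reached together with the adjusted p in this comparison. The exact two-sided permutation test gave p = 0.0286, the smallest that 4 against 4 libraries allow. In bulk tissue, more RNA per cell and more cells of a type that expresses the gene cannot be told apart.

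In control females the rise passed the test by a narrow margin. Cdkn1a stood at 643, 596, 889 and 780 in Ctrl libraries 37, 38, 39 and 51 and at 876, 974, 1292 and 1541 in Ctrl + AngII libraries 40, 41, 42 and 52. The groups overlapped by a narrow margin, since library 40 was just below Ctrl library 39. The mean went from 727 ± 133 to 1170 ± 304 (SD, n = 4). The log2 fold change was 0.67 (standard error 0.19, 95% interval 0.26 to 1.08, limma adjusted p = 0.040). The exact permutation test gave p = 0.0571. Without Ctrl library 37, 38 or 51 the log2 fold change was 0.62, 0.58 or 0.71 (limma adjusted p = 0.12, 0.12 and 0.055), and without Ctrl + AngII library 42 or 52 it was 0.61 or 0.52 (0.10 and 0.13). Over all 20 alternatives the adjusted p lay between 0.0055 and 0.21, and 11 of them passed.

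The AngII effect on Cdkn1a was 0.67 larger in Ovx than in control mice (95% interval 0.09 to 1.24), and this difference did not pass the limma test (adjusted p = 0.40, unadjusted p = 0.026). Under AngII, Ovx + AngII exceeded Ctrl + AngII by 0.47 (0.06 to 0.88, limma adjusted p = 0.35), with overlapping libraries. Without AngII, Cdkn1a differed by -0.20 between Ovx and Ctrl (-0.60 to 0.21, limma adjusted p = 0.73). A larger response in Ovx mice was therefore not established.

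**Figure D2:**
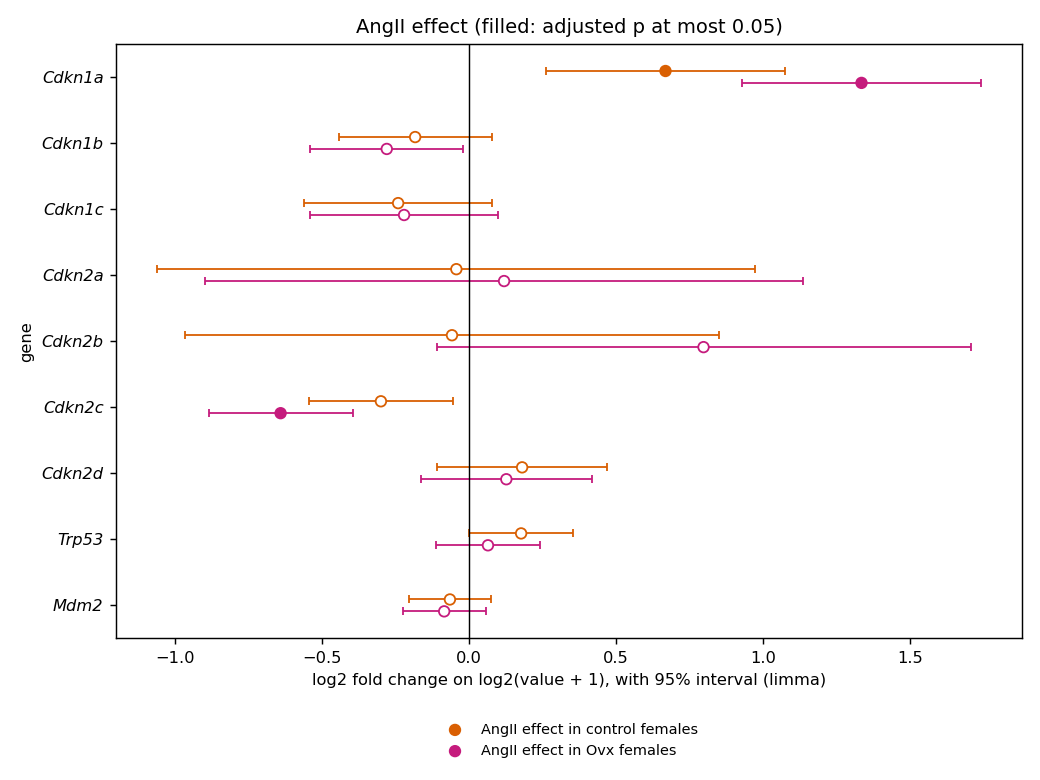
AngII effect on each of the 9 genes, as the log2 fold change (points) with its 95% interval (bars) from limma, in control females (Ctrl + AngII against Ctrl) and in Ovx females (Ovx + AngII against Ovx). Filled points passed an adjusted p of 0.05, which was the case for Cdkn1a in both groups (0.67 and 1.33) and for Cdkn2c in Ovx mice (-0.64).

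The other CIP/KIP genes did not pass the test. Cdkn1b, on chromosome 6, encodes p27, which restrains cyclin E and Cdk2. It was at 701 ± 36.5 in Ctrl and 620 ± 82.2 in Ctrl + AngII, and at 738 ± 119 in Ovx and 608 ± 98.0 in Ovx + AngII (SD, n = 4). The log2 fold changes were -0.18 (95% interval -0.44 to 0.08) and -0.28 (-0.54 to -0.02), with limma adjusted p = 0.43 and 0.17. Libraries overlapped in both comparisons, and the lowest value of the series, 471, was that of Ovx + AngII library 48, the library with the highest Cdkn1a.

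Cdkn1c, on chromosome 7, encodes p57, the imprinted CIP/KIP inhibitor that is expressed from the maternal allele. In Ovx mice it was at 461, 474, 465 and 427 without AngII and at 421, 379, 400 and 369 with AngII. These groups did not overlap, but the gap between library 53 and library 46 was small. On the log2 scale the difference was -0.22 (95% interval -0.54 to 0.10, limma adjusted p = 0.40, exact permutation p = 0.0286). Among all genes tested, 16.5% had groups without overlap in this comparison, against 3 of the 9 members (Cdkn1a, Cdkn1c and Cdkn2c).

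In control mice Cdkn1c split the infused libraries. It was at 494, 446, 392 and 444 in Ctrl libraries 37, 38, 39 and 51, at 517 and 467 in Ctrl + AngII libraries 40 and 41, and at 277 and 293 in libraries 42 and 52. The last 2 were the lowest of all 24 libraries, and the same 2 had the highest Cdkn1a of their group. The log2 fold change was -0.24 (95% interval -0.56 to 0.08, limma adjusted p = 0.39). Over the 24 libraries, log2 levels of Cdkn1a and Cdkn1c had Pearson r = -0.65, and r = -0.67 after the group means had been subtracted. This is a description over 24 libraries that share a normalization, with libraries 42 and 52 far from the rest.

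**Figure D3:**
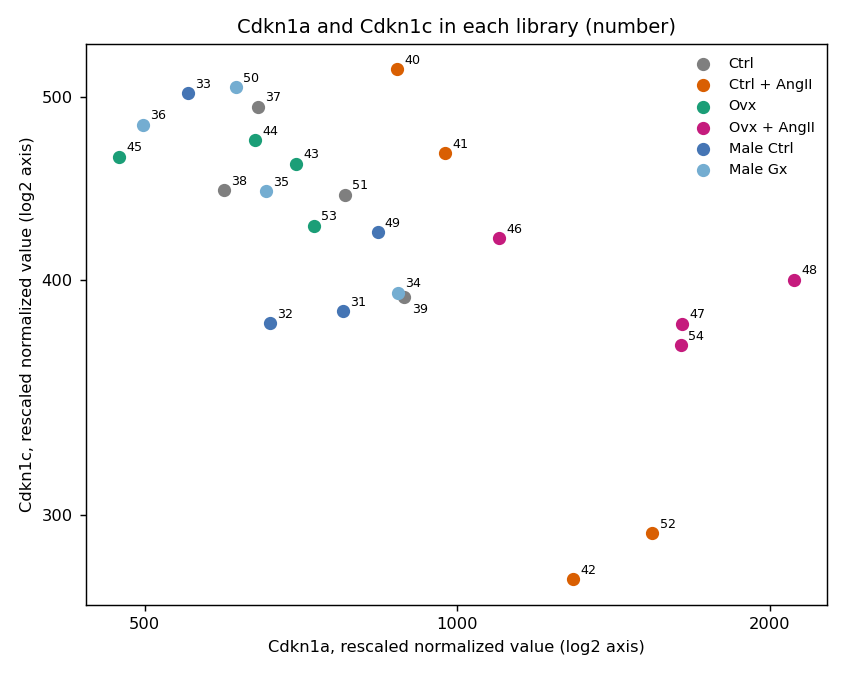
Cdkn1a (horizontal) against Cdkn1c (vertical) in each of the 24 libraries, as rescaled normalized values on log2 axes, with colours for groups and library numbers beside the points. Ctrl + AngII libraries 42 and 52 lie lowest for Cdkn1c, at 277 and 293, with Cdkn1a at 1292 and 1541.

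Of 12 tested imprinted growth genes, none passed in control mice (limma, 2 at an unadjusted p under 0.05). In Ovx mice, 2 rose and 1 fell after AngII, where 10.2% of all genes tested passed. The long noncoding RNA Meg3 rose by 0.74 and the receptor adaptor gene Grb10 by 0.34, whereas the growth factor gene Igf2 fell by 0.66 on the log2 scale. Kcnq1ot1, the antisense RNA of the Cdkn1c domain, was at 97.4 ± 102 in Ovx and 66.7 ± 10.7 in Ovx + AngII (SD, n = 4), with a log2 fold change of -0.07 (limma adjusted p = 0.95). The list's medians were -0.06 and -0.04, beside -0.01 and 0.01 over all genes tested.

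Among the INK4 genes, Cdkn2c fell after AngII in Ovx mice. Cdkn2c encodes p18, which binds Cdk4 and Cdk6. Its value was 274, 364, 364 and 300 in Ovx libraries 43, 44, 45 and 53 and 213, 207, 211 and 196 in Ovx + AngII libraries 46, 47, 48 and 54. The groups were far apart, and the infused libraries lay within a narrow range. The mean went from 325 ± 45.4 to 207 ± 7.56 (SD, n = 4). Expressed as a log2 fold change this was -0.64 (standard error 0.12, 95% interval -0.88 to -0.40, limma adjusted p = 0.0017, exact permutation p = 0.0286), or 0.642-fold (0.542 to 0.760). Cdkn2c passed the test under all 20 alternatives, with values from -0.72 to -0.58.

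In control mice Cdkn2c stood at 265, 297, 280 and 298 without AngII and at 214, 201, 281 and 237 with AngII. Library 42 lay among the untreated libraries and the other 3 infused ones lay below them. The log2 fold change was -0.30 (95% interval -0.54 to -0.05), which did not pass (limma adjusted p = 0.13), and without library 42 it was -0.39 (limma adjusted p = 0.049). The AngII effect differed between Ovx and control mice by -0.34 (-0.69 to 0.01, limma adjusted p = 0.49), so a difference was not established.

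Counting members, 1 of 9 passed the adjusted p in control mice, where 8.17% of all genes tested did (4.8% higher and 3.37% lower). No member had groups without overlap there (12.8% of all genes tested did). In Ovx mice it was 2 of 9 that passed the adjusted p, where 10.2% of all genes tested did (5.09% higher and 5.08% lower). With the added threshold of 1 on the log2 fold change, 0 members passed in control mice, where 1.19% of genes did. In control mice 3 members had an unadjusted p under 0.05 (limma). The share of all genes at this looser threshold was not computed, so that count cannot be set against these shares. The median log2 fold change of the 9 was -0.06 in control mice and 0.06 in Ovx mice, beside -0.01 and 0.01 over all genes tested. No common direction was seen, with 3 above 0 and 6 below in control mice and 5 above and 4 below in Ovx mice. The share of 1 in 9 is near the background, so these counts are no result about the family as a group.

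Cdkn2d, on chromosome 9, encodes p19Ink4d, another inhibitor of Cdk4 and Cdk6. It was at 285 ± 38.7 in Ctrl, 323 ± 48.0 in Ctrl + AngII, 290 ± 53.5 in Ovx and 312 ± 12.2 in Ovx + AngII (SD, n = 4). AngII differences were 0.18 and 0.13 (limma adjusted p = 0.49 and 0.62). Within groups, its log2 level went with that of Cdkn2c (Pearson r = 0.62 over 24 libraries after group means were subtracted), while r over the libraries as they stand was 0.07. Among the pairs of members, the within-group value was next in size after that of Cdkn1a with Cdkn1c.

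Cdkn2a and Cdkn2b, which lie side by side on chromosome 4, gave wide intervals at their low levels. Cdkn2b encodes p15. Cdkn2a was at 6.15, 19.7, 32.5 and 9.74 in Ctrl libraries 37, 38, 39 and 51, so that 1 group covered the range of the series. In Ctrl + AngII it was at 14.1, 14.8, 15.8 and 10.8, all within the Ctrl range. The AngII difference was -0.04 (95% interval -1.06 to 0.97) in control and 0.12 (-0.90 to 1.14) in Ovx mice. Changes of about a doubling thus lay at the edge of these intervals, and the smallest change that would pass the test was not computed.

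Cdkn2b was at 10.2, 24.5, 11.8 and 29.5 in Ovx libraries 43, 44, 45 and 53 and at 40.1, 24.9, 26.3 and 33.9 in Ovx + AngII libraries 46, 47, 48 and 54. Untreated library 53 lay inside the infused range and library 44 just below it, so the groups overlapped. Cdkn2b had a log2 fold change of 0.80 (95% interval -0.11 to 1.71, limma adjusted p = 0.26, exact permutation p = 0.114). In control mice it was -0.06 (-0.97 to 0.85, limma adjusted p = 0.96). With a mean value of at least 50 required, both genes left the test.

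Trp53, on chromosome 11, and Mdm2, on chromosome 10, did not pass the test in either group. Trp53 was at 500, 485, 609 and 536 in Ctrl libraries 37, 38, 39 and 51 and at 610, 657, 554 and 583 in Ctrl + AngII libraries 40, 41, 42 and 52. Ctrl library 39 lay inside the infused range and the other 3 lay below it. The log2 fold change was 0.18 (95% interval 0.0018 to 0.35, limma adjusted p = 0.22), and in Ovx mice it was 0.06 (-0.11 to 0.24, limma adjusted p = 0.69). Ctrl library 39 was the highest of its group for 6 of the 9 genes.

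Mdm2, the ubiquitin ligase of p53, was at 1756 ± 64.7 in Ctrl and 1680 ± 84.5 in Ctrl + AngII (SD, n = 4). In Ovx mice it was at 1636 ± 32.0 without and 1550 ± 175 with AngII. Differences were -0.06 (95% interval -0.21 to 0.08) and -0.08 (-0.22 to 0.06), with limma adjusted p = 0.64 and 0.47.

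Of 24 other p53 target genes tested, 2 rose after AngII in each female group, and 0 passed as lower. The share of all genes tested that passed was 8.17% in control and 10.2% in Ovx mice, so 2 of 24 is near the background. In control mice these were Phlda3, a repressor of Akt, by 0.50 (limma adjusted p = 0.013) and Zmat3, an RNA-binding protein gene, by 0.33 (0.045). In Ovx mice they were the autophagy gene Dram1 by 0.54 (limma adjusted p = 0.029) and the antiproliferative gene Btg2 by 0.52 (0.044). Bax and Bbc3, which promote apoptosis, had log2 fold changes of 0.04 and 0.30 in control and 0.04 and 0.28 in Ovx mice, none past the test. Gadd45a, a DNA damage gene, had the lowest value in both, at -0.34 and -0.32 (limma adjusted p = 0.28 and 0.26). The medians of the 24 were 0.05 and 0.10, beside -0.01 and 0.01 over all genes tested, and 15 and 18 were above 0.

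**Figure D4:**
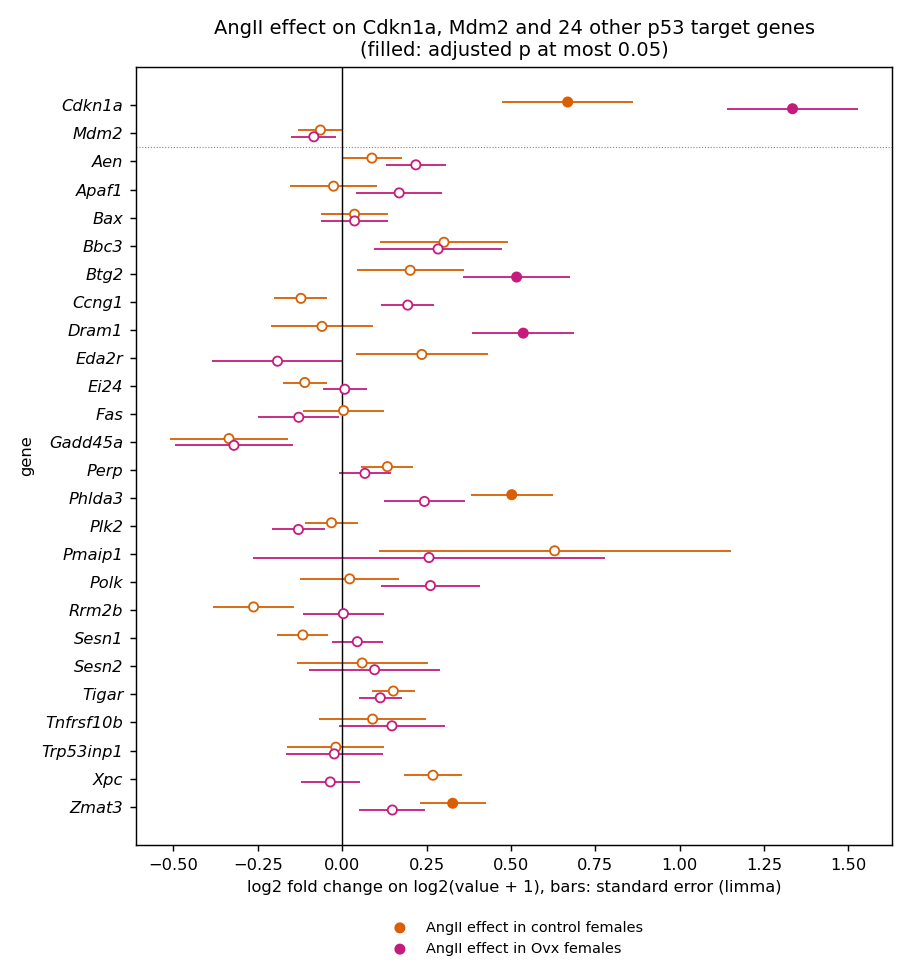
AngII effect (log2 fold change with its standard error, limma) on Cdkn1a and Mdm2, above the dotted line, and on 24 other p53 target genes, in control and Ovx females. Filled points passed an adjusted p of 0.05: apart from Cdkn1a these were Phlda3 and Zmat3 in control mice and Dram1 and Btg2 in Ovx mice, none above 0.54.

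Among 16 tested regulators of p53, 1 rose in each group, the kinase genes Hipk2 in control mice (0.35, limma adjusted p = 0.019) and Atr in Ovx mice (0.53, 0.016). This count, too, is near the background, with 8.17% of all genes tested passing in control and 10.2% in Ovx mice. Of 20 genes that control the inhibitors themselves, none passed in control mice (limma, 7 at an unadjusted p under 0.05). In Ovx mice 2 fell, where 10.2% of all genes tested passed. Cbx7, a Polycomb protein that represses the INK4 locus, went from 859 to 567 as means and fell by 0.61 on the log2 scale (limma adjusted p = 5.5e-04). Foxo3, a transcription factor that induces Cdkn1a and Cdkn1b in cultured cells, went from 1405 to 1000 and fell by 0.49 (limma adjusted p = 1.4e-04). Myc, which represses Cdkn1a and Cdkn2b, had 0.50 and 0.56, not past the test (limma adjusted p = 0.20 and 0.12).

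The kinases and cyclins that these inhibitors bind did not pass. Of 12 tested, 0 rose or fell in either group by limma, with 5 in control and 1 in Ovx mice at an unadjusted p under 0.05. Cdk4 was at -0.16 and -0.04, Cdk6 at 0.09 and 0.06, and Ccnd1 (cyclin D1) at -0.09 and -0.02 as log2 fold changes. The medians of the 12 were -0.24 in control and -0.03 in Ovx mice, beside -0.01 and 0.01 over all genes tested. Of 13 tested genes of the retinoblastoma and E2F group, E2f3 rose in control mice (0.38, limma adjusted p = 0.017) and none passed in Ovx mice (3 at an unadjusted p under 0.05). Of 17 tested cell division genes, none passed in control mice (limma, 1 at an unadjusted p under 0.05) and 2 fell in Ovx mice. With 8.17% of all genes tested passing in control and 10.2% in Ovx mice, the counts of these lists are near or below the background. The kinetochore gene Cenpf fell by 1.64 on the log2 scale and the replication helicase gene Mcm7 fell by 0.41. The proliferation marker Mki67 had log2 fold changes of -0.25 and 0.28 (limma adjusted p = 0.74 and 0.69). The medians of the 17 cell division genes were -0.25 in control and -0.10 in Ovx mice.

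Senescence markers gave a divided picture. Of 10 tested cellular markers, Hmgb1, a chromatin protein that senescent cells lose from the nucleus, fell by 0.26 after AngII in control mice and by 0.25 in Ovx mice (limma adjusted p = 0.0025 in both), and no other passed. Beside 8.17% (control) and 10.2% (Ovx) of all genes tested, 1 of 10 is near the background. Lmnb1, the lamin B1 gene whose loss marks senescence, had -0.35 and 0.12 (limma adjusted p = 0.17 and 0.66). Glb1, the gene of the lysosomal beta-galactosidase, had 0.03 and -0.21 (0.88 and 0.15).

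Of 20 tested secreted factors linked to senescence, 8 passed as higher after AngII in control mice. In Ovx mice 6 did so, and 0 passed as lower in either group. By comparison, 4.8% of all genes tested passed as higher in control and 5.09% in Ovx mice. The list was chosen with earlier results of these data known, so the excess over these shares is descriptive and was not tested. The median log2 fold changes of the 20 were 0.56 and 0.43. Spp1 (osteopontin) rose by 2.66 and 2.12 and Timp1, a metalloproteinase inhibitor, by 1.97 and 1.95. Mmp3, a metalloproteinase, rose in control mice by 1.13, and the endothelin gene Edn3 in Ovx mice by 1.74. At most 3 genes were named per group, by size, which does not mark a gene as particular to that group. The AngII effect differed between Ovx and control mice for 0 of the 20 at the adjusted p (limma). Il1b and Tnf, cytokines of the senescent secretion, had log2 fold changes of 0.28 and 0.20 in control mice and -0.24 and 0.40 in Ovx mice, none past the test. These secreted genes are also made by fibroblasts and macrophages without senescence.

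Markers of other cells and states were read in the same libraries. Counts of markers that passed stand beside 8.17% (control) and 10.2% (Ovx) of all genes tested that passed after AngII. These lists, too, were chosen with earlier results of these data known. The summed level of 7 activated fibroblast markers was 2454 to 4163 in Ctrl and 11559 to 20825 in Ctrl + AngII, and 3528 to 4551 in Ovx and 13542 to 15285 in Ovx + AngII, with all 7 above 0 in every library. That of 9 macrophage markers was 11050 to 19511 in Ctrl, 14435 to 18103 in Ctrl + AngII, 11574 to 14947 in Ovx and 13336 to 15735 in Ovx + AngII. Of 8 other fibroblast markers, 4 rose after AngII in control mice and 2 in Ovx mice, with a summed level of 56293 to 69733 in Ctrl, 67644 to 82594 in Ctrl + AngII, 62505 to 68051 in Ovx and 66176 to 75901 in Ovx + AngII. Of 9 pericyte and smooth muscle markers, 5 rose and 1 fell in control mice, and 0 rose and 1 fell in Ovx mice (limma, 7 at an unadjusted p under 0.05). Their summed level was 38606 to 40410 in Ctrl, 38552 to 41367 in Ctrl + AngII, 40155 to 44594 in Ovx and 34289 to 41539 in Ovx + AngII. Of the 8 ventricular cardiomyocyte markers, 0 rose and 2 fell after AngII in each group, the sarcomere gene Tnni3 and the calcium pump regulator Pln. Clock genes moved after AngII in Ovx mice, where 3 of 12 rose and 7 fell, and their summed level was 25155 to 26446 in Ovx and 14497 to 20215 in Ovx + AngII. In control mice 0 of 12 clock genes passed (limma, 1 at an unadjusted p under 0.05). The AngII effect differed between Ovx and control mice for 2 of the 12 at the adjusted p (limma), Dbp (-1.19) and Tef (-0.79). The paper states that the mice were not all killed at the same time of day. How these times fell on the groups is not given, and their part in the clock genes was not tested. The part of these marker shifts in the changes of Cdkn1a and Cdkn2c was not tested.

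For loss of the gonads and for sex, no difference of the 9 genes passed the test. None passed for Ovx against Ctrl, where 0.109% of all genes tested passed the adjusted p (limma). The same held for Ovx + AngII against Ctrl + AngII (1.01% of all genes), Male Gx against Male Ctrl (0.0797%) and Male Ctrl against Ctrl (1.2%). No difference between the AngII effects (0.0579% of all genes) or between the gonadectomy effects of the sexes (0.00725%) passed. At an unadjusted p under 0.05 (limma), the members numbered 0, 1, 2, 1, 1 and 0 in the order given. The share of all genes at that looser threshold was not computed, so these counts cannot be set against the shares above. These comparisons share groups, so they are not independent.

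The values nearest to a difference were these. Mdm2 was at 1833, 1691, 1716 and 1786 in Ctrl and at 1590, 1660, 1641 and 1654 in Ovx. The groups did not overlap, as was true of 6.01% of all genes tested, and the log2 fold change was -0.10 (95% interval -0.24 to 0.04, limma adjusted p = 0.57). In males it was at 1838, 1787, 1821 and 1726 without and 1752, 1668, 1558 and 1581 with gonadectomy, a log2 fold change of -0.13 (-0.26 to -0.0018, limma adjusted p = 0.58, exact permutation p = 0.0571). The mean of Mdm2 was thus lower after gonadectomy in both sexes, by an amount that did not pass in either.

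Trp53 was at 507, 505, 580 and 565 in Male Ctrl and at 624, 609, 576 and 623 in Male Gx. Male Gx library 36 lay just below the highest Male Ctrl library and the other 3 lay above it. Gonadectomy had a log2 fold change of 0.17 for Trp53 (95% interval 0.01 to 0.34, limma adjusted p = 0.54, exact permutation p = 0.0571). Cdkn2c was lower in Male Ctrl (239.5 ± 18.9) than in Ctrl (285 ± 15.8, SD, n = 4) by -0.25 (-0.48 to -0.03, limma adjusted p = 0.32), with Male Ctrl library 32 inside the female range. Cdkn1a, the gene that answered to AngII, was at 706 ± 128 in Male Ctrl and 660 ± 159 in Male Gx.

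**Figure D5:**
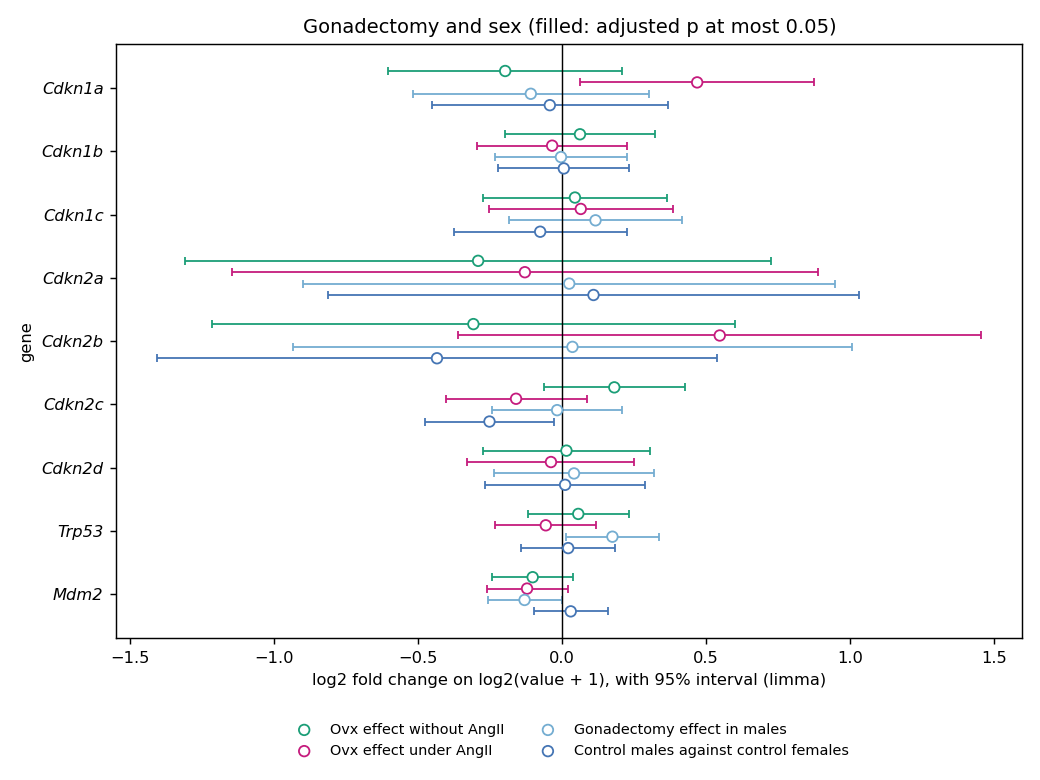
Log2 fold change (points) with its 95% interval (bars, limma) of the 9 genes for Ovx against Ctrl, Ovx + AngII against Ctrl + AngII, Male Gx against Male Ctrl, and Male Ctrl against Ctrl. No point is filled, since no adjusted p reached 0.05, and the intervals of Cdkn2a and Cdkn2b are the widest.

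Genes with a pattern most like each member were found by Pearson r of log2 levels over the 24 libraries, among 11924 genes whose mean value was 50 or more. Cdkn2a and Cdkn2b lay below that level and were left out, so this covers 7 of the 9. For Cdkn1a the first 5 were Vcan (0.91, and 0.61 with group means subtracted), P2rx5 (0.89, 0.61), Sbno2 (0.89, 0.73), Uck2 (0.88, 0.51) and Carhsp1 (0.87, 0.67). Vcan, the gene of the matrix proteoglycan versican, had log2 fold changes of 0.95 and 1.30 after AngII in control and Ovx mice, and Uck2, a uridine-cytidine kinase gene, 0.91 and 1.34. For Cdkn2c the first was the lysosomal protease gene Tpp1 (0.83, 0.52), for Cdkn2d Ostf1 (0.83, 0.84), for Cdkn1b Art4 (0.76, 0.68) and for Cdkn1c Mdga1 (0.75, 0.74). For Trp53 the first was Fbxl16 (0.75, 0.69), and the NF-kappaB subunit genes Rela (0.71, 0.66) and Relb (0.70, 0.66) were among the first 5. For Mdm2 it was Sh3glb1 (0.80, 0.71). The libraries share groups and a common scale, so these values describe likeness only.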

How the data were processed

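Per the labels and the methods, LV RNA was made into stranded mRNA libraries, and the authors aligned the reads to mm10 and normalized them with DESeq2 (STAR and Salmon are named in the submitters' processing notes). What the authors deposited per gene is a normalized signal, at or above 0. Between 3.72 and 9.27% of values came out as whole steps (within 0.01), so reads were not recovered and no count test was run. A line without a gene name (1) and 14 rows named by dates, holding 0.0552% of the values, were left out, and 0 columns lacked a sample. Sums per library were 19358900 to 25889800 (given to 6 digits), and r between libraries of a group was 0.969 to 0.986 (36 pairs), so none was counted as a duplicate. Since the number of reads per library is unknown, no counting interval is given.

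Libraries were rescaled by a median-of-ratios factor (0.889 to 1.15). Groups were compared with limma 3.58.1 in R 4.3.3 on log2(value + 1), with a mean-variance trend. Genes needed a mean of 10 or more, with Benjamini-Hochberg adjustment over all of them, in a fit of the 16 female libraries, or of all 24 for comparisons with males. The added 1 understates the change of low genes. Calls used an adjusted p of at most 0.05, and also a log2 fold change of at least 1. Counts at an unadjusted p under 0.05 have no share of all genes beside them, since it was not computed. Exact two-sided permutation tests over 70 splits were added for members. Tested on simulated data, the AngII comparison in control mice found 82% of the 100 genes with a true log2 change of 0.75, and 96% of the 100 with 1.5, with 8 false calls among 13816 genes. For the difference of AngII effects these were 67% and 93%, with 4 false calls. These shares were not split by the level or spread of a gene, and no share was computed for low genes alone. The shares therefore do not say how large a change could be found in a given member. For Cdkn2a and Cdkn2b, with their low values, they give no answer at all.

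The 9 genes and all lists were chosen with earlier results of these data known. Named are all members, at most 3 genes per list and comparison past the adjusted p and largest in size, and the 5 genes most like each member with a mean value of at least 50. Other list genes named for their role or as the lowest of a list (Bax, Bbc3, Gadd45a, Kcnq1ot1, Myc, Cdk4, Cdk6, Ccnd1, Mki67, Lmnb1, Glb1, Il1b, Tnf) were picked after their values were seen. Lengths come from GENCODE exons on mm10. Counting by strand is not given in the sources used here. Antisense transcripts overlap Cdkn1a and Cdkn1c, and reads from these could not be told apart. Alternatives were other pseudocounts (0.5 and 5), filters (none, or a mean of at least 50), scalings and variance models, and leaving out libraries.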

Additional observations from a re-analysis of the deposited data

Results flagged for a closer look

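Of 54 sets of 4 libraries examined (9 genes in 6 groups), 1 held a library far from the others, where chance gives about 1 in 20. Cdkn2c in Male Ctrl library 32 was at 268, against 228 to 233 in the other 3 libraries, and this gap was 0.867 of the group's range. The value lies among those of control females (265 to 298). No difference of effects between groups passed its test for any of the 9 genes.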

How the results depend on the processing

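Over 72 values (9 genes in 8 comparisons), 1541 alternative values were computed, of which 1521 kept their side of the threshold, and in 117 of the values the sign changed with neither value past the test. Cdkn1a in Ovx mice passed in all 20 alternatives (1.20 to 1.51), as did Cdkn2c (-0.72 to -0.58). In control mice the count of members past the adjusted p was 1, all of it Cdkn1a. It was 0 without a filter on low values (Cdkn1a adjusted p = 0.066), 0 without a variance trend (0.095) and 0 without libraries 49 to 54 (0.21), and 0 to 1 when leaving out each library in turn. The cause was not tested. On the values as deposited, which hold the shift of all genes between groups, it was 4: Cdkn1b, Cdkn1c, Cdkn2c and Mdm2 then passed as lower, while Cdkn1a was at 0.39 (adjusted p = 0.099). On that scale 6986 of all 13862 genes tested passed in control mice, so this count is no result about the members. For Male Ctrl against Ctrl, 6 members passed as lower on the values as deposited, where all genes were shifted by -0.36 and 9332 of 13811 passed. There Cdkn1b (-0.35), Cdkn2d (-0.35), Trp53 (-0.34) and Mdm2 (-0.33) changed sign. The difference of AngII effects on Cdkn1a passed in 0 of 28 alternatives (0.45 to 0.86). No paired analysis was possible because the groups share no library number. A term for libraries 49 to 54 in the fit, chosen after seeing the data, changed no call (Cdkn1a adjusted p = 0.031 in control mice). With 4 pools per group and no read counts, the intervals of Cdkn2a and Cdkn2b were wide. In Ovx mice the 95% interval of the AngII effect reached 1.14 for Cdkn2a and 1.71 for Cdkn2b. The smallest change of these genes that would pass was not computed.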

Other observations

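Some genes of the same pathways differed in comparisons where the 9 genes did not. Under AngII, Ovx mice had lower Foxo3 than control mice (-0.48, limma adjusted p = 0.0019), and higher Smad3, a mediator of TGF-beta signalling, by 0.35 (limma adjusted p = 0.049). Control males had higher E2f3 than control females by 0.45 (limma adjusted p = 0.037) and lower Icam1, an adhesion molecule of activated endothelium, by -0.57 (limma adjusted p = 0.028). Icam1 was at 452 ± 50.5 in Male Ctrl (SD, n = 4) and 682 ± 178 in Ctrl. Of 11 glucocorticoid-responsive genes, 1 passed for Ovx against Ctrl without AngII, where 0.109% of all genes tested did. This was Zbtb16, lower in Ovx by -0.98 (limma adjusted p = 0.026). The median log2 fold change of the 11 was -0.41, beside -0.004 over all genes tested. For Ovx + AngII against Ctrl + AngII it was -0.56, beside -0.001. There Per1 (-0.71, limma adjusted p = 0.0039) and Tsc22d3 (-0.59, 6.0e-04) passed as lower, where 1.01% of all genes tested passed. Adipocyte markers were low in males, with a summed level of 7.96 to 34.2 in Male Ctrl and 95.9 to 133 in Ctrl.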
